A study of Mus musculus with 4 samples.

Results

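Short-span circular RNAs are the circRNAs whose back-splice junction joins 2 genome positions less than 1000 bp apart, counted from end to end, with both ends inside exactly 1 RefSeq coding gene. By that rule 1991 of 40909 circRNAs (4.87%) were short-span, from 1563 host genes out of 6755 that had any circle inside 1 coding gene. They were read in primary mouse articular chondrocytes, passage 1 to 3 cells grown in serum-containing medium, in 4 libraries of total RNA depleted of ribosomal RNA and digested with RNase R. A pair of libraries came from cells kept for 24 h in 10 ng/ml IL-1β (recombinant, human), and a pair of control libraries came from the same cell type, given no IL-1β in its source label. The labels name no strain, age or sex, and they leave unsaid whether each library had its own culture or animal. The p-values below therefore cover no more than the spread among these 4 libraries, and that spread may be technical.

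A circRNA forms when the spliceosome joins the end of an exon back to the start of the same or an earlier exon, and RNase R spares it because it has no free end. Circles with a short span are mostly made from 1 exon, and long internal exons with long introns beside them are a known source of such circles. IL-1β is an inflammatory cytokine that drives cartilage breakdown and is used to model osteoarthritis in culture. Exon positions were not used here, so no circle is called exonic or intronic. Reads over the junction measure the circle only, and in bulk RNA fewer cells of a type and less RNA per cell cannot be told apart.

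The sequence around the junction was read for the members that lie in RefSeq windows on GRCm38.p6, the assembly also called mm10. The 3 below were picked for an abundant circle and for 2 circles that begin at an annotated transcript start. Each runs 5′ to 3′ on the strand of the gene, and the capitals mark the last 2 bases before the first base of the circle.
Klf7 circRNA.19773, window chr1:64079081-64079380, minus strand: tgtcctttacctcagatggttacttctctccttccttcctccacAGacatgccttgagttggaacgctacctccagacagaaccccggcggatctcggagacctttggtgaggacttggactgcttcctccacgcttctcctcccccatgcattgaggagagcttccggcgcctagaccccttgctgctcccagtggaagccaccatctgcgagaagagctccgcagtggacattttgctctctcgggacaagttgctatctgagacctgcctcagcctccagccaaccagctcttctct
Cuedc1 circRNA.4908, window chr11:88169545-88169574, plus strand: gcctctgtccctcatttcAGgtgacaccgt
Lats2 circRNA.9148, window chr14:57734409-57734438, minus strand: tgtcccattttctttttcAGagagtgatgg
The Klf7 window holds 46 bases before the circle and the first 254 of the 628 bp between the circle's ends, with a GC content of 47.8% before the junction and 58.3% inside the circle, and 1 of the 3 reading frames of those 254 bases had no stop codon. The bases AG, the usual last bases of an intron, stood directly before the 5′ end in 21 of 21 short-span circles with a window there, and in 281 of 287 longer circles (97.9%). GT, the usual first bases of an intron, followed the 3′ end in 3 of 5 short-span circles. The other 2, both from Rnasek, had CT there. In the longer circles GT followed in 107 of 108. The 5′ end fell on an annotated transcript start in 5 short-span circles, from Cuedc1, Lats2, Harbi1, Nav1 and Zbtb46, and in 82 longer circles. The Cuedc1 and Lats2 circles were chosen after their values were seen.

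The genome span of a few short-span circles covers a whole microRNA hairpin. Exon positions were not used, so whether the circle itself holds the hairpin was not tested. There were 10 such circles over 9 hairpins, 9 of them on the hairpin's strand, with 167 reads in all, and 2 had enough reads to be tested. The mature sequences for those 2 are given with the seed, bases 2 to 8, in capitals, from RefSeq. Each is listed under the circle whose ends lie on either side of it in the genome.
mmu-miR-877-5p, in Abcf1 circRNA.13331: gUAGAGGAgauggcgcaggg
mmu-miR-877-3p, in Abcf1 circRNA.13331: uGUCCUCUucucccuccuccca
mmu-miR-6959-5p, in Sbf1 circRNA.11030: uGGGAAACcugugucgggcugug
mmu-miR-6959-3p, in Sbf1 circRNA.11030: cUGCACCGaccugcucucccag
The Abcf1 circle (chr17:35960581-35961229, minus strand) leaves 415 bp on the 5′ side of the hairpin and 149 bp on the 3′ side. Its reads were 15 and 23 in the IL-1β libraries, 0 in control 1 and 25 in control 2. The Sbf1 circle (chr15:89305544-89306293, minus strand) was read 15 and 11 times in the IL-1β libraries and never in the controls, at least 5.53-fold higher against a floor of 3 reads per library (edgeR quasi-likelihood test, adjusted p = 0.886). Neither circle passed that test, and both were chosen after their values were seen. The Sbf1 circle reached the read minimum through the IL-1β libraries alone, so the filter fixed its direction.

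The libraries of the IL-1β group held 895774 and 980542 junction reads, and those of the control group 1198010 and 1203855. Of circle-bearing markers fixed for other cell types, macrophage genes had circles from 3 of 20 hosts (230 reads), endothelial genes from 2 of 15 (509 reads), skeletal muscle genes from 1 of 19 (7 reads) and osteoblast genes from 5 of 15 (5862 reads). The 9 defining chondrocyte genes Col2a1, Acan, Sox9, Comp, Matn3, Prg4, Hapln1, Col9a1 and Col11a1 had no circle on their own strand, and the 1 circle inside any of them, circRNA.7974 with 7 reads in control 2, lay on the strand opposite to Hapln1. A marker of another cell type had a short-span circle with higher values under IL-1β, without passing the test: circRNA.29797 of Flt1, a VEGF receptor of endothelial cells, had 73 and 61 reads in the IL-1β libraries against 22 and 30, a log2 change of 1.71 (edgeR, unadjusted p = 0.0196, adjusted p = 0.886). This circle was chosen after its values were seen. Its groups did not overlap, but how often tested circRNAs show this is not given here, so it adds no support. By contrast, 13 of the 15 endothelial genes, Cdh5, Kdr and Tek among them, had 0 circular reads. Over the whole endothelial list the share of junction reads was 0.0155% and 0.0116% with IL-1β and 0.00968% and 0.0116% in control, and its part in the results below was not tested. These are circular reads only, and the linear mRNAs of these genes were not analysed here.

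Short-span circles were few in number but rich in reads. They carried 418980 junction reads, 9.79% of the series, and 1 circle from Nfix gave 30.3% of those. The top 2 gave 40.1%, the top 10 gave 58.7% and the top 50 gave 82.2%. The median short-span circle had 10 reads over the 4 libraries, against 13 for the 37162 longer circles with 1 coding host. The span ran from 143 to 999 bp with a median of 605 bp. The span was a multiple of 3 in 34.2% of short-span circles and 33.4% of longer ones, near 1 in 3 in both classes. The span is a distance in the genome that can include introns, so it does not give the length of the circle.

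Most short-span circles were seen in a single library. There were 1318 (66.2%) with reads in 1 library only, which held 4.20% of the short-span reads, and 267 (13.4%) in all 4 libraries, which held 89.2%. For longer circles the shares of circles were 57.3% and 17.4%. Precision followed depth in both classes. Among short-span circles with 200 or more reads in total the median coefficient of variation between the libraries of a group was 20.4%, and 4 of 139 had a library with 0 reads. With 50 to under 200 reads it was 55.0%, and 44.2% of circles lacked reads in some library. With 20 to under 50 reads it was 141%, the value when 1 of 2 libraries is at 0, and 95.2% lacked reads in some library.

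**Figure D1:**
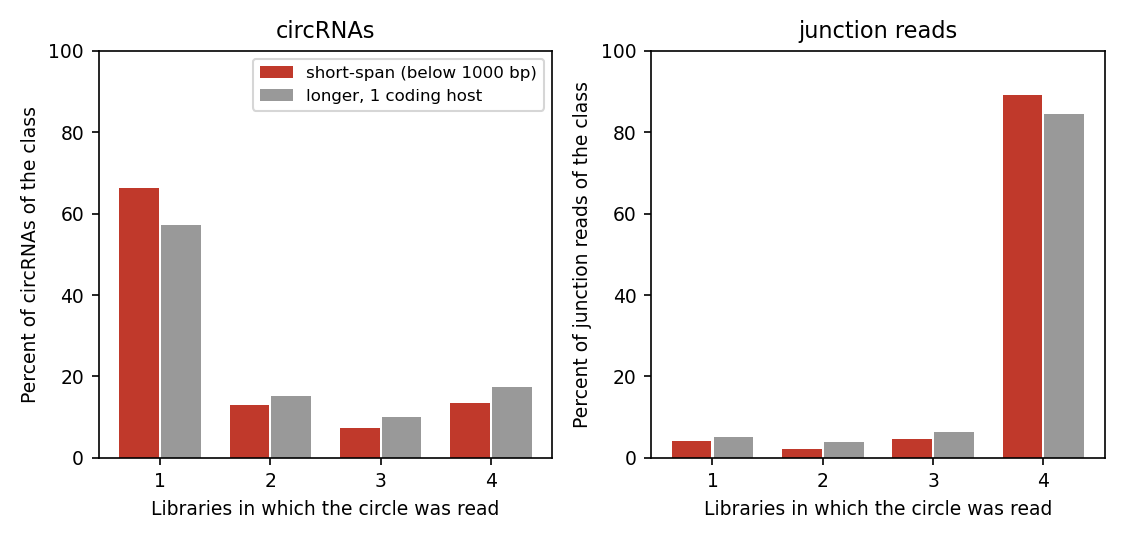
Percent of circRNAs (left) and percent of junction reads (right), on y axes from 0 to 100, by the number of libraries in which a circle was read, for short-span circles (red) and longer circles with 1 coding host (grey). Circles read in 1 library make up 66.2% of short-span circles and 4.20% of their reads, and circles read in all 4 make up 13.4% and 89.2%.

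Rarely and widely read members also sat in different kinds of gene. The median host of a circle read in 1 library was 31903 bp long (n = 1074 circles on the known strand of their host). For circles read in all 4 libraries it was 62777 bp (n = 208 such circles). Their 5′ ends lay at a median of 63.8% and 47.7% of the way along the host. Over all short-span circles on the known strand of their host the median host was 38086 bp long and the 5′ end lay at 59.8%. For longer circles on that strand the values were 86624 bp and 44.8%. Of 1624 short-span circles with a known host strand 98.6% lay on it, and of longer circles 99.7% did. These are descriptions over circles, which share libraries and hosts.

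Most hosts made 1 short-span circle: 1244 had 1, 248 had 2 and 71 had 3 or more. The translation elongation factor gene Eef2 had the most, 7, with only 43 reads between them. Dync1h1, the heavy chain of cytoplasmic dynein, had 6 with 285 reads, and Col1a1, a collagen I chain made by fibroblasts and bone cells, had 6 with 87. Flna (filamin A) also had 6, with 60 reads. So many members in a host did not go with many reads in these genes. Of 649 hosts with a short-span circle and at least 200 circular reads, short-span circles gave over 90% of the host's reads in 37, over 50% in 101 and under 5% in 364, and the host's most-read circle was short-span in 134.

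The share of junction reads in short-span circles did not separate the groups. It was 9.33% and 9.66% with IL-1β and 8.57% and 11.5% in control, or 9.49% ± 0.233 and 10.0% ± 2.05 (SD, n = 2 each). The controls lay on either side of the IL-1β libraries, and the difference of -0.531 percentage points had p = 1 in a two-sided exact permutation test, which cannot go lower than 0.33 here. Without control 2 the difference was 0.919 and without control 1 it was -1.98, so its direction rested on control 2. Circles below 500 bp took 1.07% and 1.23% of the IL-1β libraries' reads and 0.957% and 1.00% of the controls' reads. The groups did not overlap there (difference 0.173 percentage points, exact permutation p = 0.33, the smallest possible).

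The 10 most abundant short-span circles were led by those of Nfix and Setbp1. All levels are in CPM, junction reads scaled to a common total of reads on tested circRNAs with TMM factors. The Nfix circle circRNA.37871 (chr8:84771784-84772315, minus strand), from a nuclear factor I transcription factor, stood at 29047 and 29222 with IL-1β and 27234 and 38336 in control, and gave 91.1% of all circular reads of Nfix. Control 2 was high and the other 3 libraries were close together (log2 change -0.17 ± 0.20 SE). The Setbp1 circle circRNA.15856 (chr18:79086551-79087180, minus strand), from a gene for a SET-binding protein, stood at 8464 and 7382 with IL-1β and 9938 and 13937 in control. Both IL-1β libraries were lower than both controls, by a log2 value of -0.59 ± 0.22 (edgeR, unadjusted p = 0.0326 and adjusted p = 0.886). The Kat6b circle circRNA.8628 (chr14:21516626-21517498, plus strand), from a histone acetyltransferase gene, had the same order, 2672 and 2768 against 3088 and 4154, with a log2 change of -0.41 ± 0.22 that also did not pass. How often tested circRNAs have groups without overlap is not given here, so the order in these circles adds no support.

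For the other abundant circles the groups overlapped or 1 library decided the value. Samd4 (circRNA.8980), a translational repressor gene, stood at 3319, 3454, 3389 and 3703 CPM in the order IL-1β 1, IL-1β 2, control 1 and control 2. Foxn2 (circRNA.14729), a forkhead factor gene, stood at 2075, 2943, 1783 and 2469, and the insulin receptor gene Insr (circRNA.37049) at 1876, 2252, 1767 and 2343. In each of these the groups overlapped, with log2 changes of -0.066 ± 0.18, 0.24 ± 0.27 and 0.0061 ± 0.23. Fam160b1 (circRNA.17257) stood at 1845, 2233, 2000 and 1919, and the Krüppel-like factor gene Klf7 (circRNA.19773, chr1:64078707-64079334) at 2032, 1905, 1291 and 2279. Smad1 (circRNA.37797), a transducer of BMP signals, stood at 1737, 1542, 1687 and 1680, again with overlap. Fam160b1 and Klf7 gave nearly all their circular reads through this 1 circle, 99.6% and 99.6%.

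The Rad52 circle circRNA.31523 (chr6:119920110-119921028, plus strand), from a gene of homologous recombination repair, had 2781 and 3736 reads with IL-1β, 3206 in control 1 and 0 in control 2. The other circles of Rad52 had 495, 552, 1051 and 427 reads, so control 2 did read the gene. The log2 change was 1.33 ± 1.98, and 0.33 with control 2 left out. With control 1 left out, so that control 2 stood alone, the adjusted p in edgeR was 0.0307.

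**Figure D2:**
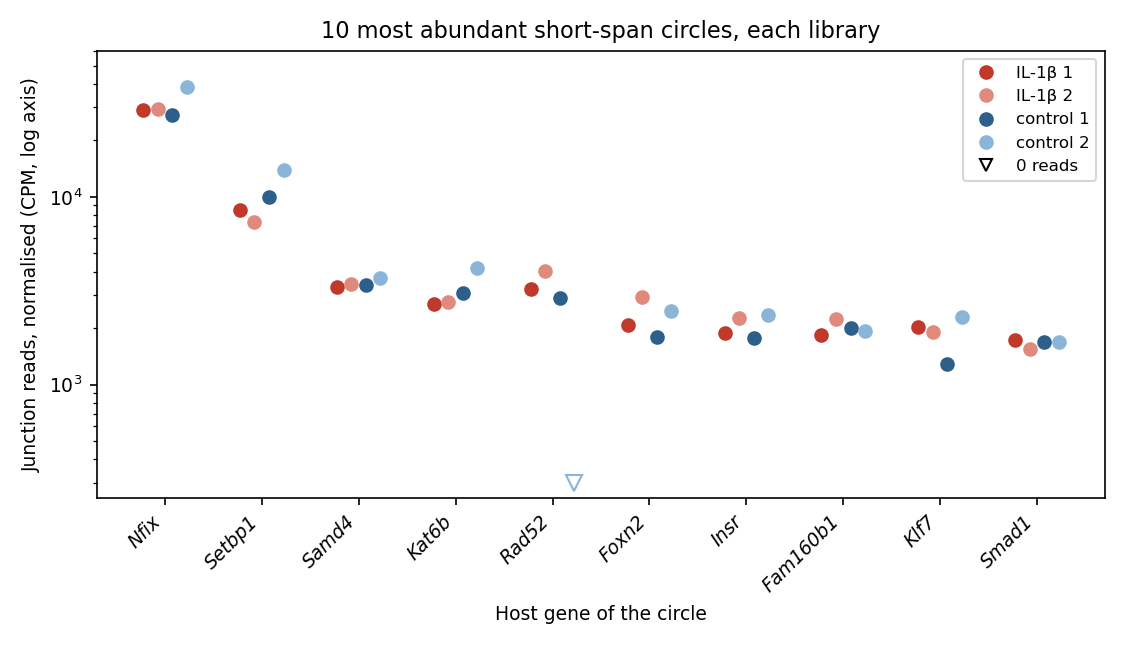
Level of the 10 short-span circles with the highest mean level (x axis, by host gene) in each library, in CPM on a log axis, 1 point per library. Setbp1 and Kat6b have both IL-1β libraries below both controls, and the open triangle marks 0 reads for Rad52 in control 2.

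The next 10 circles by level stood between 917 and 1608 CPM on average. They came from Nfix (circRNA.37869), Pik3r1, Ttll3, Septin9, Glis3, Kif26b, Ttc28, Igf1r, Shoc2 and Ap2a1. Excepting the Nfix circle, which had reads in control 2 only, their log2 changes lay between -0.46 (Septin9) and 0.64 (Ttc28 circRNA.28570).

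Few short-span circles changed with IL-1β by the test. Of the 1991, 603 (30.3%) had at least 20 reads and were tested, against 38.6% of longer circles, and 1388 were not. In edgeR's quasi-likelihood test with Benjamini-Hochberg adjustment over all 15333 tested circRNAs, 1 short-span circle passed 0.05, on the lower side. The background was 0.0196% of all tested circRNAs in either direction and 0.013% lower. Before adjustment 34 (5.64%) had a p under 0.05, with 23 on the higher and 11 on the lower side, beside 3.44% of all tested circRNAs (1.83% higher and 1.62% lower). That balance was not stable: it was 12 and 14 with depth taken from the authors' SRPBM scaling, 8 and 20 without IL-1β 2, and 30 and 3 without control 2. In DESeq2 6 passed, beside 0.691% of all: Ttc28 circRNA.28572, Nfix circRNA.37869, Farp1, Ldha, Setd2 and Plekhm1. The tested members include 60 with 0 reads in both controls and 55 with 0 in both IL-1β libraries. These reached the read minimum through 1 group alone. Of all 15333 tested circRNAs, 870 had 0 reads in both controls and 1557 had 0 in both IL-1β libraries.

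The circle that passed was Ttc28 circRNA.28572 (chr5:111182928-111183431, plus strand), from a tetratricopeptide repeat gene. Controls 1 and 2 had 848 and 1502 reads of it and both IL-1β libraries had 0, at least 307-fold lower (edgeR, adjusted p = 0.0282). Its neighbour circRNA.28570, which was chosen after its values were seen, shares the end at 111183431 and starts 4 nt earlier at 111182924. That neighbour was read 1292 and 1088 times in the IL-1β libraries against 819 and 1124, with a log2 change of 0.64 ± 0.25 (edgeR, adjusted p = 0.886). The sums of the pair were 1292, 1088, 1667 and 2626 reads, with a log2 change of -0.50 ± 0.27 (edgeR, adjusted p = 0.894). The call thus held for the division of reads between the neighbours and not for the sum. It was also lost when any 1 library was left out (adjusted p from 0.129 to 0.903).

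Such near-identical pairs, with both ends within 5 nt, made up 22 short-span circles in 11 sets. In Nfix, circRNA.37869 (start 84771780, 4 nt from the main circle) had 0 reads in IL-1β 1, IL-1β 2 and control 1 and 7458 in control 2, and the summed Nfix junction had a log2 change of -0.30 ± 0.25. In Kif26b, a kinesin gene, circRNA.18711 had 38, 68, 16 and 0 reads, and circRNA.18712, whose start lies 3 nt away, had reads in control 2 only, 48. With all junctions within 5 nt summed, 0 short-span circles passed the adjusted threshold in edgeR. How the circRNA caller places such junctions is not given in the sources used here, and its part in these values was not tested.

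**Figure D3:**
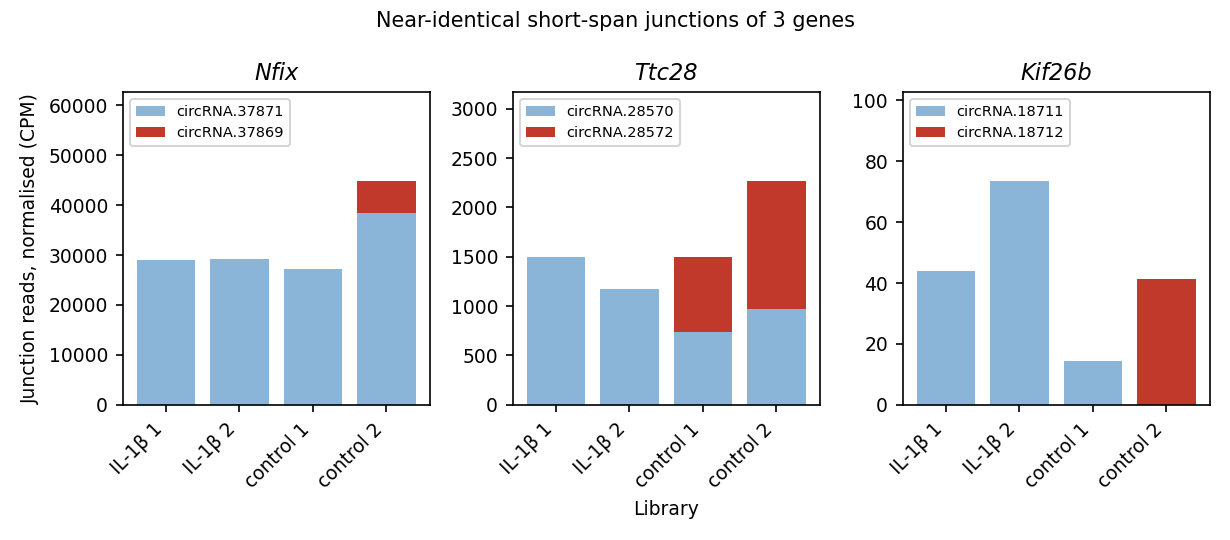
Stacked bars of normalised junction reads (CPM, from 0) in each library for the near-identical junction pairs of Nfix, Ttc28 and Kif26b, with 1 colour per junction. The second Ttc28 junction (red) has reads in both controls only, and the second junctions of Nfix and Kif26b have reads in control 2 only.

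Among circles that did not pass, those with the lowest p and higher values with IL-1β included a circle of Farp1. The Farp1 circle circRNA.8374 (chr14:121101518-121102182, plus strand) stood at 270 and 223 CPM with IL-1β and 73.0 and 99.2 in control. The groups did not overlap, and the log2 change was 1.52 ± 0.33 (unadjusted p = 0.00332, adjusted p = 0.886 in edgeR, and 0.00262 in DESeq2). Ldha (circRNA.35202, chr7:46850178-46851058, plus strand), lactate dehydrogenase A of glycolysis, stood at 293, 248, 143 and 103, with a log2 change of 1.14 ± 0.32. It gave 96.2% of the circular reads of its gene. Setd2 (circRNA.38517), the histone H3 lysine methyltransferase, stood at 109, 169, 55.9 and 37.1. Mob3b (circRNA.27301), of the MOB kinase adaptor family, stood at 128, 96.0, 42.4 and 41.4, and Socs7 (circRNA.5119), of the suppressor of cytokine signalling family, at 124, 119, 50.5 and 56.0. All 5 had both IL-1β libraries above both controls, which picking by the lowest p favours. The share of such circles among all tested circRNAs is not given here, so this count adds no support. Plekhm1 (circRNA.2386), an adaptor of lysosome fusion, had 34, 22, 0 and 0 reads, at least 11.9-fold higher. The Plekhm1 circle reached the read minimum through the IL-1β libraries alone, so the filter fixed its direction. Each of these had an adjusted p of 0.886 in edgeR.

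On the lower side, Lpar1 (circRNA.27696, chr4:58486477-58487224, minus strand), a receptor for lysophosphatidic acid, stood at 101 and 74.5 CPM with IL-1β against 169 and 210, a log2 change of -1.11 ± 0.35. Ndst1 (circRNA.15475), an enzyme of heparan sulfate synthesis, had 7 and 26 reads against 64 and 130, and Ash1l (circRNA.25371), a histone methyltransferase, had 53 and 46 against 132 and 135. In all 3 the groups did not overlap, which their choice by lowest p likewise favours. Without the share among all tested circRNAs, this count too adds no support. Zfhx3 (circRNA.36197, 232 bp), a homeodomain factor, had 0, 0, 17 and 45 reads, at least 8.07-fold lower. The Zfhx3 circle reached the read minimum through the controls alone, so the filter fixed its direction. None of these passed, each with an adjusted p of 0.886 in edgeR.

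**Figure D4:**
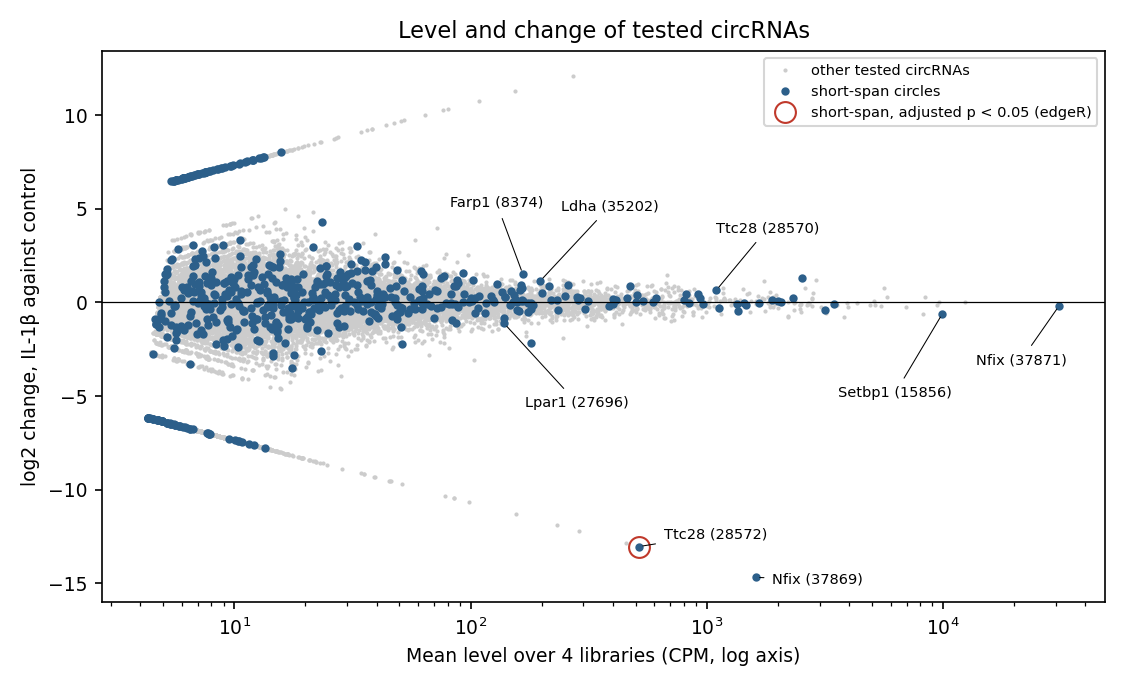
Fitted log2 change (IL-1β against control, y axis) against mean level over the 4 libraries (CPM, log x axis) for tested circRNAs, with short-span circles in blue, others in grey and a red ring on the 1 short-span circle past the adjusted threshold. Points on the outer diagonals have 0 reads in both libraries of a group, or in 3 of the 4 libraries. Their fitted values are not bounds. Most circles of high level lie near 0, but some with 0 reads in a library do not, such as Nfix circRNA.37869 and Ttc28 circRNA.28572.

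Most short-span circles read in depth lay within 2-fold. Of the 139 short-span circles with at least 200 reads, 121 had a fitted change within 2-fold, 11 were over 2-fold higher and 7 over 2-fold lower. Their median absolute log2 change was 0.32, below the median standard error of 0.40. Before adjustment 11 of the 139 had a p under 0.05 in edgeR on the higher and 7 on the lower side. Among all 603 tested short-span circles these counts were 23 and 11. The matching counts for longer circles with at least 200 reads are not given here. None of these counts is therefore read as particular to short-span circles.

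The reads of each host were also summed over its short-span circles, which does not depend on how they divide between near-identical junctions. No host passed: 0 of 590 in edgeR at an adjusted p under 0.05, with a background of 0% over 5197 sums of short-span or longer circles. Before adjustment 34 (5.76%) had a p under 0.05, with 25 on the higher and 9 on the lower side, beside 4.79% of all sums (2.27% and 2.52%). This balance also turned, to 11 and 12 with SRPBM depth and to 9 and 24 without IL-1β 2. In DESeq2 3 hosts passed, Farp1, Ldha and Mob3b, beside 0.847% of all. Short-span output of Farp1 was 271 ± 23.9 CPM with IL-1β and 86.0 ± 22.3 in control (SD, n = 2 each), while its longer circles summed to 254 ± 55.3 and 179 ± 50.3. Zfp292, a zinc finger gene, stood at 593 ± 168 and 332 ± 4.12 in its short-span circle and at 585 ± 117 and 593 ± 114 in its longer circles. Whether short and longer output of a host differed was not tested on these sums. The usage test described below set single circles against the other circles of their gene. In it Farp1 circRNA.8374 had a log2 change of 0.45 ± 0.56 (edgeR, unadjusted p = 0.426). Zfp292 circRNA.27294 had 0.52 ± 0.49 (edgeR, unadjusted p = 0.308), and neither passed.

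Ep300, the histone acetyltransferase p300, was the host with lower short-span output at the lowest p, 141 ± 81.7 CPM with IL-1β and 362 ± 3.93 in control, while its longer circles stood at 100 ± 14.3 and 103 ± 53.7. Its main short circle circRNA.10808 had 112, 0, 298 and 372 reads, and was chosen after its values were seen. In the usage test that circle had a log2 change of -1.24 ± 0.92 (edgeR, unadjusted p = 0.186). Setbp1 was lower in both kinds of circle, with log2 values of -0.63 ± 0.20 for short-span and -0.86 ± 0.19 for longer circles. Neither Ep300 nor Setbp1 passed (adjusted p = 0.891 for each in edgeR).

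The usage test asked whether a circle moved relative to the other circles of the same gene. Of 436 short-span circles in it, 1 passed, Ttc28 circRNA.28572 (adjusted p = 2.11e-10 in edgeR), beside 0.0672% of 13401 circles, and it passed with each library left out. Before adjustment 13 had a p under 0.05 on the higher and 6 on the lower side (4.36%), beside 2.93% of all (1.51% and 1.41%), and this was 5 and 9 without IL-1β 2. Nfix circRNA.37869 had the next lowest adjusted p, 0.0986. The other circles with the lowest p had few reads. Zmynd8 (circRNA.22078), a chromatin reader gene, had 28, 17, 0 and 0 reads. Zbtb20 (circRNA.12153), a transcription factor gene, had 16, 32, 0 and 0. Ascc3, a helicase gene, had 1 circle on each side: circRNA.1049 with 32, 10, 0 and 0 reads and circRNA.1052 with 0, 0, 11 and 37. The Zmynd8, Zbtb20 and Ascc3 circles each reached the read minimum through 1 group alone, which fixed their direction.

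The size of the span went along with the direction of change. The median log2 change was 0.36 for 174 tested circles below 500 bp, of which 115 were above 0, and 0.015 for 429 circles of 500 bp to below 1000 bp, of which 220 were. For circles with 1 coding host of 50 kb or more it was -0.27 (501 of 1234 above 0), and over all tested circRNAs it was -0.047. In finer classes the median was 0.99 below 300 bp (21 circles), 0.41 from 300 to below 400 bp and 0.29 from 400 to below 500 bp. It then lay between -0.071 and 0.13 from 500 bp to 5 kb, and reached -0.24 from 50 to 100 kb and -0.38 from 100 kb. The value below 500 bp moved with single libraries: without IL-1β 2 it was 0.018, when the median of all tested circRNAs was -0.17, and without control 1 it was 0.65, when that of all was 0.026. With depth taken from the authors' SRPBM scaling it was 0.086 below 500 bp and -0.20 from 500 to below 1000 bp, when that of all was -0.28. The IL-1β libraries are also the less deeply read ones, and the part of depth in this order was not tested. No test was run on these medians, since circles are not replicates.

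**Figure D5:**
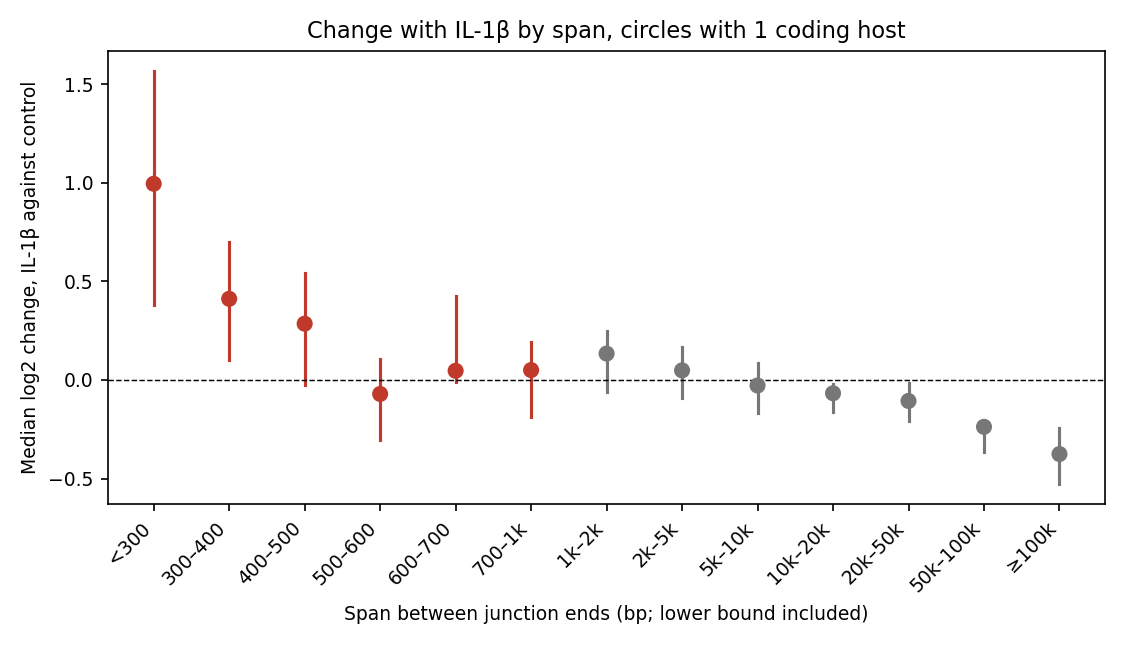
Median log2 change (IL-1β against control, y axis) of tested circles with 1 coding host by span class (x axis, bp), short-span in red and longer in grey, with vertical lines from the lowest to the highest median when each library is left out in turn. Medians go from 0.99 below 300 bp to -0.38 at 100 kb or more, and the lines are widest below 300 bp.

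The hosts were grouped by function from lists that earlier results of these data had informed. Transcription factor genes were the richest group: 28 of 82 had a short-span circle, with 47.8% of all short-span reads, mostly from Nfix and Setbp1. Of their 23 tested circles 7 were above 0, with a median log2 change of -0.27, beside 0.12 for all tested short-span circles and 335 of 603 above 0, and 0 passed in edgeR (1 in DESeq2, Nfix circRNA.37869). The reference for all short-span circles itself turned sign, to -0.11 with SRPBM depth (274 of 603 above 0) and to -0.10 without IL-1β 2 (228 of 501), so no list is read from its sign. Before adjustment 3 had a p under 0.05, each on the lower side (Setbp1, Zfhx3 and Nfix circRNA.37869). Genes known for conserved circRNAs overlapped with them and held 46.1% of the reads, with 13 of 24 tested above 0, a median of 0.15 and 1 circle called lower, the Ttc28 one above.

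Chromatin regulators had 11 of 21 tested circles above 0 (median 0.13), kinases 10 of 15 (0.11), zinc finger proteins 5 of 13 (-0.28) and RNA binding or splicing factors 12 of 18 (0.21). Ubiquitin ligases and deubiquitinases had 3 of 8 above 0 (-0.015), and cell cycle and replication genes 4 of 8 (-0.071). None of these lists had a circle past the adjusted threshold in edgeR (1 in DESeq2, of Setd2), and before adjustment they held 4 circles with a p under 0.05 on the higher and 1 on the lower side. The Hippo pathway kinase Lats2 (circRNA.9148) stood at 233 and 235 CPM with IL-1β and 163 and 169 without it, a log2 change of 0.49 ± 0.28. The ubiquitin ligase Rnf111 (circRNA.40084) stood at 262, 274, 290 and 397. Uhrf1 (circRNA.13728), which maintains DNA methylation, had 69, 69, 70 and 57 reads. Tnrc6c (circRNA.2781), a partner of Argonaute, had 15, 26, 0 and 0 reads, at least 8.58-fold higher with IL-1β without passing. It reached the read minimum through the IL-1β libraries alone, so the filter fixed its direction.

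NF-κB and inflammatory genes, the textbook targets and mediators of IL-1β, gave few short-span circles, 8 from 8 of 79 hosts with 187 reads in all. The 3 tested ones were all above 0, and 2 of them had no reads in control. Those 2 reached the read minimum through the IL-1β libraries alone, so the filter fixed their direction. The endoribonuclease family gene Zc3h12c (circRNA.39472) had 14, 13, 0 and 0 reads, at least 5.71-fold higher. Stat3 (circRNA.2269), a transducer of cytokine signals, had 7 and 17 against 0 and 0, at least 5.00-fold higher, and the IκB gene Nfkbie (circRNA.13457) had 26, 25, 21 and 28. With the first pair at their bounds the median log2 change of the 3 was 2.32, which is the bound of Stat3 itself. None passed (edgeR, 0.886 the lowest adjusted p). Cartilage genes had 1 of 5 tested circles above 0 (median -0.40) and fibroblast matrix genes 0 of 2 (-0.64). In the latter, Adamts12 (circRNA.9760), a metalloprotease gene, had 12, 5, 45 and 0 reads, and Col1a1 (circRNA.5026) had 0, 18, 25 and 0, so their groups overlapped.

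Just inside the limit of 1000 bp lay Tnrc18 (circRNA.29597, 999 bp) with 9, 5, 18 and 30 reads and Rbbp5 (circRNA.17874, 998 bp) with 0, 4, 0 and 19. Just outside, at 1000 bp, lay Atxn2 (circRNA.28930) with 193, 251, 239 and 240 reads and Hmgxb3 (circRNA.15490) with 69, 94, 114 and 129.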

How the data were processed

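Junction reads were deposited as whole-number counts per circRNA and library, per the file headers, and beside them stands SRPBM, the authors' depth-scaled signal, equal to the count divided by 1 constant per library. The submitters' processing notes name mm10 and Bowtie2. Which circRNA caller and filters were used is not given in the sources used here. For controls the treatment field repeats the text of the treated samples, so groups come from the source label. The 4 library tables were checked to equal the series table.

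Ends were placed in RefSeq genes (GRCm38.p6, 1 bp tolerance). CircRNAs reaching 20 reads in all (libraries of 895774 to 1203855 junction reads) entered edgeR 4.0.16 in R 4.3.3 (TMM factors, quasi-likelihood test, Benjamini-Hochberg adjustment over the whole table). CPM divides by the TMM-scaled reads on tested circRNAs, or on tested sums for host output. The same fit was run on host sums, and diffSpliceDGE gave usage within a host. Each standard error came from the log2 change and its F statistic. Folds against a group at 0 use a floor of 3 reads per library, and floors cover counting error only, because PCR copies are not separate molecules. The scripts were tested on simulated counts. DESeq2 1.42.0, a replicate block, RLE factors, library totals, SRPBM depth, read minimums of 50 and 1, sums over junctions within 5 nt, a limit of 500 bp, thinning to the smallest library total and each library left out were alternatives. DESeq2 gave no adjusted p for 42.7% of circRNAs. Python 3.11.15 with scipy 1.17.1 gave the rest.

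The members and gene lists were chosen with earlier results of these data known. Named were the 10 most abundant members, the 6 in each direction with the lowest p, the 4 in each direction with the lowest usage p, the 2 with the lowest p per list, the 2 nearest the limit on each side, the 4 hosts of lowest p in each direction and the 3 hosts with the most members. Some of those picked per list are given only within counts, and others named as chosen after their values were seen fall outside the rule. Some items are not reported here.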

Additional observations from a re-analysis of the deposited data

How the results depend on the processing

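With 2 libraries per group, circles with under 50 reads mostly lacked reads in a library, so small differences in them were not detectable at this depth. The number of short-span circles past the adjusted threshold, 1 in edgeR, was 6 in DESeq2, 4 with no read filter, 5 with a replicate block, 0 with at least 50 reads, 0 with junctions within 5 nt summed, 0 below 500 bp, and 0 to 2 with 1 library left out. At an unadjusted p under 0.05 the 34 circles became 79 in DESeq2, 57 with no filter, 9 below 500 bp and 23 to 56 with 1 library left out. For host output the 0 calls became 3 in DESeq2, 3 with no filter, 3 with the block and 0 to 2 with 1 library left out, and the 34 at an unadjusted p became 73, 53 with no filter and 8 below 500 bp. Usage calls, 1 in the fit reported, were 0 with junctions summed, 2 with no filter, 2 with the block, 0 below 500 bp and 1 to 3 with 1 library left out. Its 19 at an unadjusted p became 6 with at least 50 reads, 7 below 500 bp and 14 to 32 with 1 library left out.

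The labels do not say whether libraries with the same replicate number were paired. Differences between libraries 1 and 2 correlated at -0.034 across groups over 3100 circRNAs, which cannot show whether they were. The block's 5 circles were Ttc28 circRNA.28572, Ep300 circRNA.10808, Rad52 circRNA.31523, Nfix circRNA.37869 and Farp1 circRNA.8374, and it turned Adamts12 circRNA.9760 to 1.04 and Col1a1 circRNA.5026 to 0.038. With SRPBM depth the signs of Insr (-0.20), Fam160b1 (-0.18), Klf7 (-0.035), Cuedc1 (-0.14) and Atxn2 (-0.010) turned, and Insr was -0.0028 with RLE factors and -0.0027 in DESeq2. Summing turned Ttc28 circRNA.28570 to -0.50. Leaving out 1 library turned the sign, over the ranges given, for Nfix (-0.42 to 0.10), Samd4 (-0.16 to 0.0023), Foxn2 (-0.061 to 0.50), Insr (-0.21 to 0.23), Fam160b1 (-0.11 to 0.17), Klf7 (-0.24 to 0.61), Smad1 (-0.15 to 0.023), Col1a1 (-6.56 to 0.78), Cuedc1 (-0.19 to 0.28) and Abcf1 (-0.059 to 7.36). The causes were not tested.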
